A study of Ovis aries with 16 samples.

Results

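NBEA encodes neurobeachin, a large scaffold protein of the BEACH-domain family that takes part in vesicle trafficking and in the targeting of receptors to the cell surface, and is best known from synapses. DNA methylation in mammals is found mostly on cytosines of CpG sites. Gene bodies often carry it along their length, whereas CpG-rich starts of genes are often free of it. Methylation along NBEA was examined here in fetal longissimus dorsi (LD) muscle of sheep. The gene (ENSOARG00000010627) lies on chromosome 10 from 26007917 to 26592574 (Oar_v3.1) and spans 584658 bp. It is 1 of 30 genes listed beside the differentially methylated regions (DMRs) of the study. All peaks that overlapped the gene or the 10 kb on each side of it were taken, a window of 604658 bp from 25997917 to 26602574. The window held 936 of 6410742 peaks in the 16 fetuses.

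The 16 fetuses were carried by Polypay ewes and came from 2 groups. In the Hay group, 8 fetuses were from ewes fed alfalfa haylage. In the Corn group, 8 fetuses were from ewes limit-fed corn with a supplement and a little haylage. Both diets ran from mid-gestation to necropsy late in gestation and were planned to give similar energy. They also differed in the intake of crude protein, methionine, serine and choline, which was higher on hay, and of folate, which was higher on corn, and these cannot be told apart from the source of energy. DNA came from whole muscle, so a different mix of cells and a different methylation within a cell type cannot be told apart. Most of the fetuses, and all in the Hay group, were twins that shared a dam with another fetus of the study, so fewer ewes than fetuses received each diet. The labels do not tie a numbered fetus to its dam, sex or sequencing lane. The diet tests, the comparisons within fetuses and the correlations across fetuses therefore all treat littermates as independent. Their p-values, which measure the spread among these fetuses only, may be too small.

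Fragments carrying methylated CpG sites were captured with a methyl-binding domain protein and sequenced, and the authors called peaks in each fetus separately. A peak therefore marks a stretch where methylated DNA was recovered. The deposited value of each peak was read as its P-value, and its −log10 is called the score here. The lowest score of any peak was 0.869 and the median 1.469, so the presence of a peak can rest on a weak call. The depth behind a peak is unknown because the files give no read counts, and a fetus may lack a peak because its library was shallow or because little methylation was there. The number of CpG sites in a stretch is also unknown here, because no sequence was used. Coverage of different stretches or genes is therefore not a measure of methylation per CpG site. The number of peaks per fetus varied from 261331 to 519923 over the genome, with the most in hay fetus 15, and the bases under peaks varied from 158123259 to 288147165. Because the strand of NBEA is not given in the sources used here, the ends of the gene are called lower and upper by coordinate. Positions are given in kb from the lower end. Which end holds the start of transcription is not known here, and first and last also refer to coordinate. In the RefSeq gene table of another sheep assembly, MAB21L1, a protein-coding gene, lies within NBEA. By the coordinates of that assembly, DCLK1 is the neighbour below NBEA and RFC3 the neighbour above. The study, on Oar_v3.1, lists MAB21L1 beside the same DMR as NBEA. A start and end of MAB21L1 on that build were not used here, so no region was assigned to it.

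NBEA with its flanks was covered less by peaks than its surroundings. In this paragraph and the next, NBEA means the window with its flanks, and values within the gene alone follow by stretch. Over the whole window, 3.97 ± 0.940% of bases (SD, n = 16) were under a peak, from 2.64% in hay fetus 10 to 5.87% in hay fetus 8. The rest of chromosome 10 was covered at 8.72 ± 1.56% (SD, n = 16), so NBEA carried 0.456 times the coverage of its chromosome. NBEA was lower than the rest of the chromosome in 16 of 16 fetuses, with a mean difference of -4.74 percentage points (exact sign-flip permutation test within fetuses, two-sided, p = 3.05e-05, the smallest that 16 fetuses allow). The 1 Mb on each side of the window was covered at 6.42 ± 1.42% (SD, n = 16), again above NBEA in 16 of 16 fetuses (exact sign-flip permutation test, p = 3.05e-05). Other stretches of the same length were not scored. These p-values therefore do not show whether NBEA is unusually sparse among such stretches. The difference between NBEA and the rest of the chromosome was -4.71 points in hay and -4.77 points in corn (NBEA minus the rest), and these did not differ beyond the spread among fetuses (exact permutation test, p = 0.879).

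Compared with the 3 longest other genes listed beside DMRs, NBEA had the lowest coverage in every fetus. SLC9A9, a sodium-proton exchanger of endosomes, was covered at 5.18 ± 1.25% (SD, n = 16). ADAMTSL1, a secreted matrix protein, was covered at 6.89 ± 1.12%, and PLCB4, a phospholipase C in G protein signaling, at 9.56 ± 2.10% (SD, n = 16 each). NBEA lay below each of them in 16 of 16 fetuses, with mean differences of -1.20, -2.91 and -5.58 points in that order (NBEA minus the other gene; exact sign-flip permutation tests, adjusted p = 3.05e-05 over the 3 genes). SLC9A9 was the nearest to NBEA, and their ranges across fetuses overlapped, at 2.64% to 5.87% for NBEA and 2.99% to 7.23% for SLC9A9. The difference from SLC9A9 is thus one within each fetus. The limit given above for the p-values holds for these genes too.

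**Figure D1:**
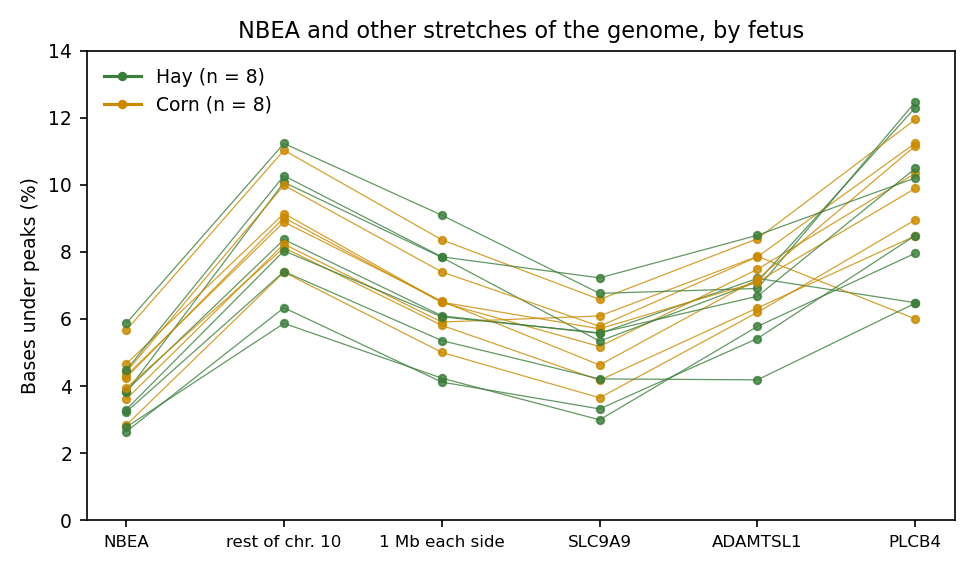
Percent of bases under peaks (vertical axis) for NBEA, the rest of chromosome 10, the 1 Mb on each side, SLC9A9, ADAMTSL1 and PLCB4, with 1 line for each of the 16 fetuses coloured by diet. Every line starts at its lowest point at NBEA, and the mean for NBEA is 3.97% against 8.72% for the rest of the chromosome.

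Coverage was uneven along the gene. The 10 kb flank at the lower end was the most covered stretch, at 26.7 ± 5.72% (SD, n = 16). The first 50 kb of the gene were covered at 8.23 ± 2.55% and the next 50 kb at 4.97 ± 1.97% (SD, n = 16 each). From 400 to 450 kb only 0.963 ± 0.905% was covered, and 3 of 16 fetuses had no peak there. The last stretch of the gene, from 550 kb to its upper end, was covered at 1.07 ± 0.927%, and the upper flank at 1.71 ± 2.56% (SD, n = 16 each). When the gene was divided at its middle, a division made after the values were seen and given with no test, the 292.3 kb on the lower side were covered at 4.69 ± 1.12% (range 3.16% to 6.80%). The 292.3 kb on the upper side were covered at 2.56 ± 0.786% (range 1.22% to 4.21%), and the lower side was the more covered in 16 of 16 fetuses.

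**Figure D2:**
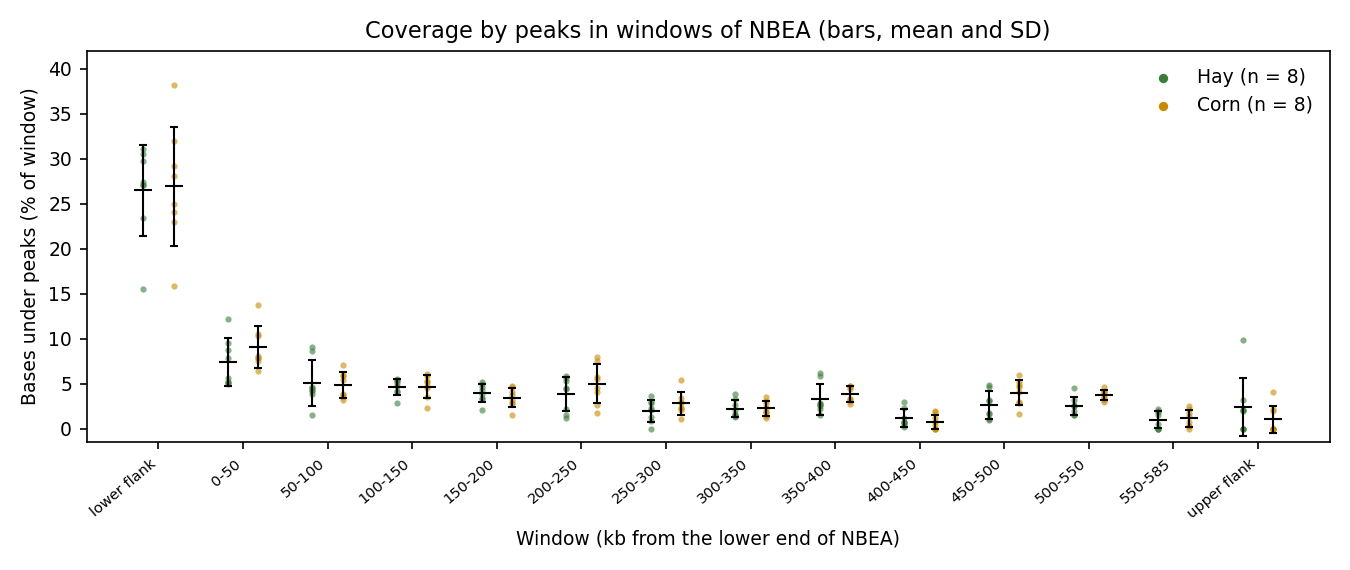
Percent of bases under peaks (vertical axis) in the 2 flanks and in 50 kb windows along NBEA (horizontal axis, kb from the lower end), with 1 point per fetus and bars for the mean and SD of each diet (n = 8). The lower flank stands far above the gene body, at 26.7% over all fetuses, and from 400 to 450 kb the mean is 0.963%.

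Merging peaks that shared at least 1 bp gave 122 regions in the window, out of 706111 in the genome. A peak of a single fetus made up 39 of them. The other 83, called consensus regions, had a peak in at least 2 fetuses, out of 512238 in the genome. Of the 83, 10 had a peak in all 16 fetuses, 17 in 12 to 15, 29 in 5 to 11 and 27 in 2 to 4. The regions shared by all fetuses were 12.05% of the consensus regions of NBEA, beside 17.8% on chromosome 10 and 17.3% in the genome. The regions of a single fetus were 32.0% of all merged regions, beside 26.9% and 27.5%. Within the gene body, 10.9% of bases lay under a peak of any fetus and 89.1% under none. The 3 longest stretches of the gene with no peak in any fetus measured 17274 bp (26109752 to 26127025), 17104 bp (26434311 to 26451414) and 16349 bp (26407869 to 26424217). The second and the last of these fell into the 400 to 450 kb window for all or nearly all of their length.

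**Figure D3:**
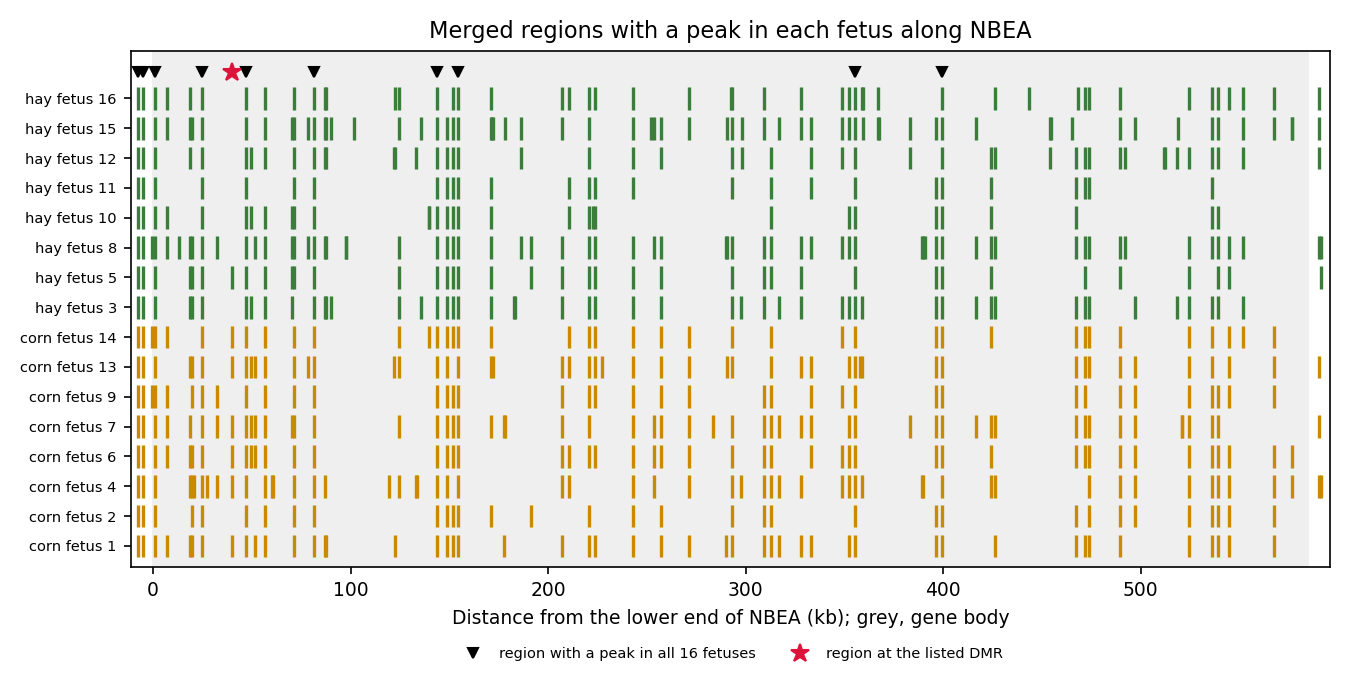
Merged regions with a peak in each fetus (rows, corn below and hay above) against the distance from the lower end of NBEA in kb, with the gene body in grey. Triangles mark the 10 regions with a peak in all 16 fetuses and the star marks the region at the listed DMR; 8 of the 10 triangles lie below 200 kb.

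The regions shared by all 16 fetuses gathered toward the lower end. Both regions furthest below the gene, 8.72 kb and 6.09 kb before its lower end, were among them. A further region lay across the lower end of the gene itself, 5 began at 24.06, 46.58, 80.99, 142.65 and 153.82 kb, and the last ones began at 354.9 and 399.17 kb. None began beyond 400 kb. Per fetus, the 10 shared regions held 39.0 ± 4.64% of the covered bases (SD, n = 16), from 29.9% in hay fetus 8 to 48.2% in hay fetus 11. This share was 39.2% in hay and 38.9% in corn, which did not differ beyond the spread within diets (exact permutation test, p = 0.904).

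The widest region of the window was the shared region at 142.65 kb (26150568 to 26152648), 2081 bp made of 37 peaks. The region across the lower end (26007797 to 26009849) was 2053 bp wide and reached from 0.12 kb before the gene to 1.93 kb inside it. The highest scores were reached by 5 of the shared regions, with a median scaled score of 3.13 at 399.17 kb (26407086 to 26407868), 2.89 at the lower end, 2.70 at 153.82 kb (26161738 to 26162886), 2.67 at 354.9 kb (26362819 to 26363654) and 2.47 in the lower flank (26001829 to 26003866). At the upper end the nearest region lay in the flank (26598032 to 26598281), where 4 hay and 3 corn fetuses had a peak.

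A further 6 regions had a peak in all fetuses but 1. The fetus without a peak was from the Hay group in 5 of these and was corn fetus 4 in the remaining 1. Over the 17 regions with a peak in 12 to 15 fetuses, hay fetus 10 lacked a peak in 7, corn fetus 4 in 6, and hay fetuses 11, 15 and 16 in 5 each, whereas corn fetuses 1, 6 and 7 and hay fetus 8 lacked none. Hay fetuses 10 and 11 had the fewest peaks over the genome, but hay fetus 15 had the most. The same counts were not made over the genome, so neither the split by diet nor the counts per fetus are read as a trait of NBEA.

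The question put to the series was whether the diet of the ewe changes methylation in the fetal muscle. Over NBEA as a whole, the covered bases, their share and the numbers of peaks and regions did not separate the diets. Scores in the shared regions are given further below. Covered bases in hay ran from 15942 over a median of 21478 to 35476, and in corn from 17126 over a median of 25860 to 34232. The groups overlapped over almost the whole range. The means were 22624 ± 6338 bases in hay and 25444 ± 4952 bases in corn (SD, n = 8 each), so hay minus corn was -2820 bases (two-sided exact permutation test, p = 0.338). Of each 1000000 bases covered in a fetus, NBEA took between 87.5 and 135 in hay with a median of 105, and between 88.3 and 121 in corn with a median of 110. The highest and the lowest shares both belonged to hay fetuses. The mean share was 104 ± 16.0 in hay and 109 ± 10.6 in corn (SD, n = 8 each; exact permutation test, p = 0.517).

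Peak numbers in the window were close as well. Hay fetuses had 34 to 81 peaks with a median of 61, and corn fetuses 45 to 69 with a median of 62.5. The means were 58.75 ± 15.7 and 58.25 ± 9.74 (SD, n = 8 each; exact permutation test, p = 0.956). Consensus regions with a peak numbered 27 to 59 in hay with a median of 44, and 33 to 51 in corn with a median of 47. Hay fetuses thus held both extremes of either count. The means were 43.4 ± 11.8 and 44.0 ± 6.23 regions (SD, n = 8 each; exact permutation test, p = 0.914).

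Covered bases of NBEA followed those of the whole genome across the 16 fetuses, with r = 0.849 (permutation test, p = 3e-05) and rho = 0.815 (p = 0.00023, permutation test). Adjusted over the 6 relations computed, these were p = 9e-05 and p = 0.00046 (permutation tests). Without the 2 fetuses farthest from the median, r was 0.779 (permutation test, p = 0.00084). Within the diets r was 0.793 in hay (n = 8, exact permutation test, p = 0.0106) and 0.937 in corn (n = 8, exact permutation test, p = 0.00184). The relation held in both. For numbers of peaks, r was 0.907 and rho 0.930 (permutation tests, p = 1e-05, the smallest that 100000 resamples can give).

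**Figure D4:**
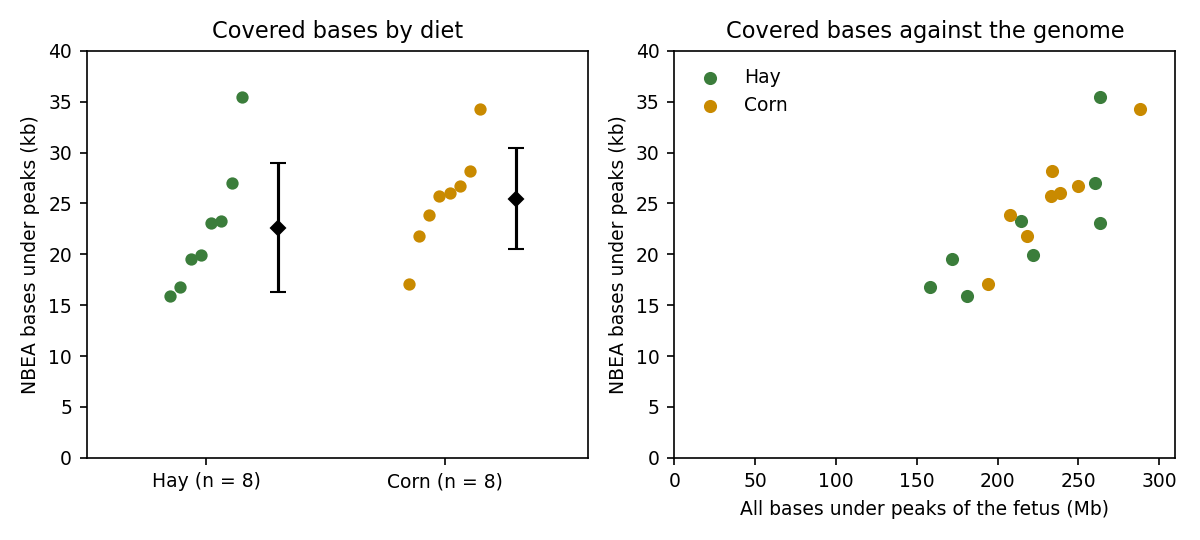
Left, NBEA bases under peaks (kb) in each fetus by diet, with the mean and SD (diamond and bars, n = 8). Right, the same values against all bases under peaks of the fetus (Mb); the diets overlap on the left (p = 0.338, exact permutation test), and on the right the points rise together (r = 0.849).

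In the 10 regions shared by all fetuses, peak scores were compared after scaling each fetus over the 88488 regions that were called throughout the genome in all 16. The mean log2(score + 1) in hay lay between 1.54 and 1.87 with a median of 1.68, and in corn between 1.65 and 1.91 with a median of 1.79. Most of the range was common to both groups. The means were 1.71 ± 0.114 and 1.80 ± 0.0793 (SD, n = 8 each), a difference of -0.09 on the log2 scale (hay minus corn; exact permutation test, p = 0.0912). With unscaled scores the difference was -0.25 (exact permutation test, p = 0.00808), which passed the threshold of 0.05. The median unscaled score of a peak over the whole genome averaged 1.45 in hay and 1.54 in corn fetuses (p = 0.0842, exact permutation test), and its part in the unscaled result was not tested. The scaled difference also passed the threshold when hay fetus 12 (-0.11, exact permutation test, p = 0.0361), corn fetus 14 (-0.11, exact permutation test, p = 0.0376) or hay fetus 15 (-0.11, exact permutation test, p = 0.0316) was left out.

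The shared region across the lower end of the gene had the smallest limma P-value of the window. Its log2 score ranged from 1.63 to 2.48 in hay with a median of 1.85, and from 1.73 to 2.75 in corn with a median of 2.27. Although corn was the higher group on average, the ranges overlapped. The means were 1.89 ± 0.266 in hay and 2.26 ± 0.308 in corn (SD, n = 8 each), and limma gave a difference of -0.37 (hay minus corn, SE 0.131, adjusted p = 0.919 over all 512238 regions). It therefore did not pass the genome-wide adjustment. With unscaled scores the limma difference there was -0.54 (hay minus corn, adjusted p = 0.62). Of the other 9 shared regions, 7 were lower in hay and 2, both in the lower flank, were higher in hay, with differences from -0.19 to 0.17 and limma P-values of at least 0.28.

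The region at the listed DMR is left out of the counts that follow, because the gene was listed for its diet difference in these fetuses. Across the other consensus regions of NBEA, limma gave an adjusted p under 0.1 at 0 of 82, beside 0.000586% of all regions tested in the genome. That is 3 of 512238, so calls were rare everywhere, and 0 of 82 does not show that the diets are alike in NBEA. An unadjusted limma p under 0.05 was reached by 3 of 82, or 3.66%, beside 3.16% in the genome. NBEA thus lay near the background in this setting, and the shares under other settings are given in the last section. Of the 3, 1 was higher in hay (1.43% of regions in the genome) and 2 were higher in corn (1.73%). By the sign of the difference, 44 regions were higher in hay and 38 in corn, with a median difference of 0.03 (hay minus corn) beside 0.02 for the genome. This split turned with the scaling and with the choice of regions or peaks. With unscaled scores 38 were higher in hay and 44 in corn, and over the genome the share higher in hay went from 53.9% to 40.4%. Among regions called in at least 8 fetuses, 18 were higher in hay and 26 in corn (47.8% higher in hay over the genome). With stronger peaks only, the numbers were 29 and 34 (50.7%). The split kept its direction with a pseudocount of 5 (46 and 36) and with the number of peaks as a covariate (43 and 39).

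At the listed DMR (26047624 to 26048353, 730 bp, 39.7 to 40.4 kb inside the gene), the merged region had the very start and end of the listed interval. The study lists it as higher in corn. Among corn fetuses, 6 had a peak, and fetuses 2 and 9 had none. Among hay fetuses, only fetus 5 had one. The unscaled scores were 1.01 in corn fetus 6, 1.22 in corn fetus 1, 1.34 in corn fetuses 4 and 13, 1.65 in corn fetus 7, 1.72 in corn fetus 14 and 1.12 in hay fetus 5. Of these 7, 5 lay below 1.469, the median unscaled score of all peaks in the genome. On the log2 scale the region averaged 0.89 ± 0.576 in corn and 0.11 ± 0.322 in hay (SD, n = 8 each), with 0 for a fetus without a peak. No test is given for it, for the reason stated above.

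Both regions next to the DMR were lower in hay on average, and neither passed the limma test. Whether their differences are unlike that at the DMR was not tested. Below it, the region at 32.03 kb (26039948 to 26040770) had a peak in 3 corn fetuses and 1 hay fetus, with a limma difference of -0.32 (hay minus corn, SE 0.297, adjusted p = 0.99). Above it, the region at 46.58 kb (26054502 to 26055525) had a peak in all 16 fetuses, with log2 scores of 1.35 ± 0.171 in hay and 1.54 ± 0.275 in corn (SD, n = 8 each) and a limma difference of -0.19 (SE 0.180, adjusted p = 0.99). Over the first 50 kb of the gene, hay had 3701 ± 1315 covered bases and corn 4525 ± 1167 (SD, n = 8 each). Without the DMR region the values were 3677 ± 1303 and 4160 ± 1042, so hay minus corn was -483 bases (two-sided exact permutation test, p = 0.420).

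**Figure D5:**
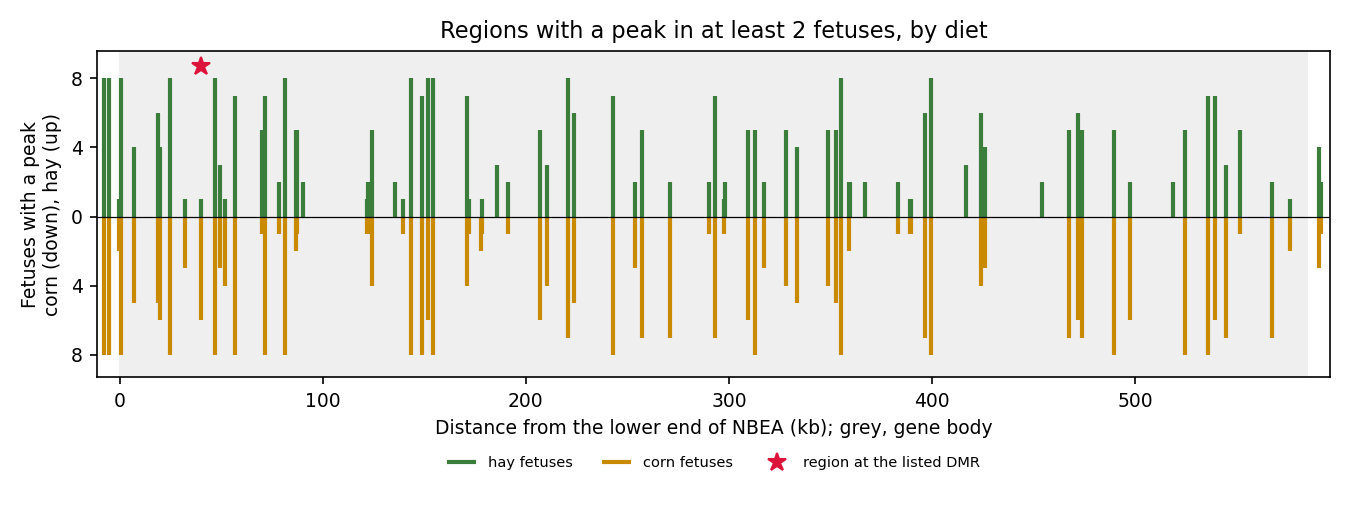
Number of hay fetuses (bars up) and corn fetuses (bars down) with a peak in each of the 83 consensus regions, against the distance from the lower end of NBEA in kb, with the gene body in grey. The star marks the region at the listed DMR, with 1 hay and 6 corn fetuses; bars of 8 on both sides are the 10 shared regions.

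Among the variable regions, those with a peak in 2 to 15 fetuses, there were excesses in both directions along NBEA. Without the DMR region, 31 of 72 had a peak in more hay fetuses, 29 in more corn fetuses and 12 in equal numbers. These are 43.1%, 40.3% and 16.7%, beside 35.0%, 39.5% and 25.6% in the genome. The largest excess of hay was 5 fetuses against 1, at 551.22 kb (26559142 to 26559809), 87.27 kb (26095187 to 26095490) and 70.0 kb (26077914 to 26078378). At 551.22 kb the log2 score in hay had a median of 1.23 and ran from 0 to 1.61, and in corn from 0 to 0.96 with a median of 0. The single corn fetus with a peak, at 0.96, lay below the 5 hay fetuses with a peak and above the hay fetuses without one. The limma difference was 0.72 (hay minus corn, SE 0.348, adjusted p = 0.919).

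The largest excess of corn outside the DMR was 7 fetuses against 2, at 566.93 kb (26574844 to 26575565) and at 270.73 kb (26278647 to 26279445). The unscaled scores of their peaks ran from 0.987 to 2.86 and from 0.986 to 2.47. At 566.93 kb the log2 score in corn had a median of 1.12 and ran from 0 to 1.62, and in hay from 0 to 1.46 with a median of 0. The groups overlapped, with 1 corn fetus at 0 and a pair of hay fetuses among the corn values. limma gave -0.74 (hay minus corn, SE 0.348, adjusted p = 0.919). The regions at 551.22 and 566.93 kb lie near each other at the upper end of the gene, and their differences had opposite signs, although neither passed the adjusted test. Of the 28 regions with a peak in 5 to 11 fetuses, 7 had an excess of at least 4 fetuses, 3 for hay and 4 for corn, which is 25% beside 6.40% in the genome. This measure was chosen after the values were seen and has no test, and neighbouring regions of the same libraries are not independent.

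Regions with a peak in only 2 to 4 fetuses leaned toward hay. Of 27, 9 had peaks in hay fetuses only and 1 in corn fetuses only, or 33.3% and 3.70%, beside 18.3% and 10.1% in the genome. Hay fetus 15 had a peak in 8 of the 9. Without that fetus, 21 regions had a peak in 2 to 4 of the others, with 3 in hay fetuses only and 2 in corn fetuses only, and the genome had 11.5% and 15.4%. Hay fetus 15 also had the most regions with no peak of another fetus, 8 in NBEA, where the other fetuses had 0 to 7, and 24.2% of all such regions in the genome.

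By 50 kb windows and flanks, 0 of 14 differed between the diets at an adjusted p under 0.05 (exact permutation tests), and 1 had an unadjusted p under 0.05. This was the window from 500 to 550 kb. Covered bases there ranged from 750 to 2252 in hay with a median of 1266.5, and from 1504 to 2303 in corn with a median of 1885. Corn was the higher group, with overlap at the top of the hay range. The means were 1274 ± 490 and 1883 ± 282 bases (SD, n = 8 each), so hay minus corn was -609 bases (two-sided exact permutation test, p = 0.0104, adjusted p = 0.146). Its consensus regions number 5, and none of them is shared by all fetuses.

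Among the 11 other genes of at least 100 kb listed beside DMRs, ADAMTS12, a secreted metalloprotease, had the share of covered bases most like that of NBEA across fetuses, with rho = 0.81 and r = 0.79 over 16 fetuses. TBC1D19 and ST8SIA1 followed with rho of 0.39 and 0.24. These are descriptions, and the fetuses share their libraries and depth between genes.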

How the data were processed

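DNA of fetal LD muscle from 8 Hay and 8 Corn fetuses was captured by a methyl-binding domain protein and sequenced. Per the labels and the study's methods, the authors used Trimmomatic 0.33 for trimming, BWA 0.7.15 for alignment to Oar_v3.1, Picard 1.107 for removal of duplicates and ChIPseeqer for calling peaks, fetus by fetus. They deposited 1 peak list per fetus, with chromosome, start, end and a column without a header that was taken as the p-value because it lies between 0 and 0.1352. No threshold or input control is stated for the peaks. The authors obtained DMRs with DiffBind and edgeR from reads, which peak lists do not hold, so their test was not repeated. Gene and DMR positions were taken from the study's list of DMRs and their genes.

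Scores are −log10 of that deposited p-value, with 0 set to 1e-100 (1315 peaks, 0 of them in the NBEA window). Peaks sharing at least 1 bp were merged. The highest score of a fetus in a region was divided by a factor (0.765 to 1.38) from the 88488 regions called in all 16 fetuses, and taken as log2(score + 1), with 0 where there was no peak. Single values were compared by exact permutation over all 12870 assignments (smallest p 0.000155), paired values by 65536 sign flips, and regions by limma 3.58.1 in R 4.3.3 (lmFit, eBayes with trend) over all 512238 consensus regions with Benjamini-Hochberg adjustment at 0.1. limma was tested on simulated data of 20000 regions for hay against corn: it recovered 100% of 200 regions given a log2 shift of 2, and false calls made up 4.76%. The largest limma difference of NBEA outside the DMR region was -0.74 (hay minus corn), and recovery at that size was not simulated. Other steps used Python 3.11.15, numpy 2.4.6, scipy 1.17.1, pandas 2.3.3 and matplotlib 3.10.9.

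Regions were named by a fixed rule: those at the DMR and next to it, at the ends of the gene, the widest, the 5 shared regions with the highest median score, the 3 with the largest excess of fetuses per diet, the 3 with the smallest limma p and the 3 longest stretches without a peak. Genes were compared by rank correlation of the share of covered bases. The gene, the lists and the tests were chosen with earlier results of these data known. Alternatives covered scaling, pseudocount, peak filters, covariates, window size and leaving out each fetus. Depth is unknown, so no interval that needs it is given. Neither sequence nor gene models of Oar_v3.1 were used.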

Additional observations from a re-analysis of the deposited data

Results flagged for a closer look

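In the 10 kb flank at the upper end of NBEA, hay fetus 8 had 985 covered bases, far from the other 7 hay fetuses, of which the next had 320. The gap was 0.675 of the range of the group. Hay fetus 8 also had the most covered bases over the NBEA window. This was 1 of 38 groups of 8 fetuses looked at for a fetus apart from the others, and chance alone marks about 1 group in 20.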

How the results depend on the processing

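The covered bases of NBEA and their share of a fetus's total stayed lower in hay under every alternative, with differences of -4656 to -1565 bases and -8.89 to -2.13 per 1000000 covered bases when each fetus was left out. The sign of the difference in peak count turned with stronger peaks only (-3.25), in the gene body alone (-0.375) and per 100000 peaks of the fetus (-0.345), and leaving out each fetus gave -2.68 to 4.04. It turned without corn fetuses 2, 9 or 14 or hay fetuses 3, 8, 15 or 16. The difference in regions with a peak turned when regions of a single fetus were counted (0.75), and leaving out each fetus gave -2.86 to 1.71, with a change of sign without hay fetuses 5, 10 or 11 or corn fetus 7. Without the DMR region it was 0. The mean score of the shared regions passed the threshold without scaling (-0.249) and ranged from -0.113 to -0.0653 on leaving out each fetus. The causes of these changes were not tested. Regions with an adjusted limma p under 0.1 numbered 0 in NBEA outside the DMR region under every setting, while the genome had 46 without scaling, 11 with a pseudocount of 5, 43 with the number of peaks as a covariate, and 0 with peaks in at least 8 fetuses or stronger peaks only. An unadjusted limma p under 0.05 was reached by 6 of 82 regions (7.32%) without scaling, all higher in corn, beside 5.68% in the genome. With the covariate it was reached by 8 of 82 (9.76%), 3 higher in hay and 5 in corn, beside 4.99% in the genome. Among regions called in at least 8 fetuses it was 3 of 44 (6.82%, beside 3.75%). With stronger peaks only it was 3 of 63 (4.76%, beside 3.31%), and in both settings all 3 were higher in corn. With a pseudocount of 5 it was 3 of 82 (3.66%, beside 3.36%). Over the window settings, the smallest adjusted p of the exact permutation tests lay between 0.1 and 0.335. Leaving hay fetus 15 out of the regions with a peak in 2 to 4 fetuses was chosen after seeing the data and took those with peaks in hay only from 9 to 3. Hay and corn fetuses came from different ewes, so the diet comparisons were not paired. Depth is unknown in these files, so differences in regions without a peak in some fetuses could not be set against it.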
